A study of Mus musculus with 2 samples.

Results

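Serpins are a superfamily of proteins that share one fold, and 59 of the 24323 genes named on a mouse whole-genome expression array carried a serpin symbol. Members were taken by name alone, as non-control probes whose array gene name was Serpin followed by a clade letter from a to i, a number and at most 1 further letter. The rule found 75 probes on 84 spots, with 1 probe for 43 genes and several for 16. Each array was a 1-colour hybridisation of total RNA, 1 from the tooth and 1 from the skin of wild-type (WT) mice at postnatal day 0, and neither group carried an allele or received an agent according to the labels. The study's methods name a stage 1 day later than the labels, which were followed here. The number of animals behind each array is not stated, and both arrays lay on the same slide. With 1 array per tissue no difference could be tested, and none has a replicate check.

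Most serpins inhibit proteases by a suicide mechanism. The target protease cleaves an exposed reactive centre loop, the loop inserts into the body of the serpin, and the protease stays covalently trapped. Clade A holds secreted inhibitors of the plasma type, clade B holds mainly intracellular serpins, many of them made by keratinocytes and leukocytes, and the remaining clades include regulators of clotting, fibrinolysis and complement. A few members inhibit nothing, among them maspin (Serpinb5), pigment epithelium-derived factor (PEDF, Serpinf1) and the collagen chaperone HSP47 (Serpinh1).

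Levels are given as the log2 signal minus the 75th percentile of that array, so that 0 marks the 75th percentile, and differences are skin minus tooth on the log2 scale. A gene was called well above background as the extraction software defined it, and its brightest probe stood for it. A gene dim on 1 array has only a bound, written as "at least", against the lowest signal called well above background on that array. This signal was -4.52 in tooth and -3.73 in skin, and a dim value above it was kept as measured. The call is made per spot, so a dim gene can lie above this signal. The bound is therefore an estimate on this scale and no guaranteed minimum. A different background correction (normexp) gave smaller differences for several genes. Scatter between repeated spots alone gave a difference an SD of 0.12. The tooth array showed all 4 ameloblast markers (Amelx, Ambn, Enam, Mmp20), and none of them was well above background in skin. Their summed level, relative to the 75th percentile, was 2151 in tooth and 0.0774 in skin. All 5 odontoblast and bone markers were higher in tooth, with a summed level of 343 against 0.652. All 5 markers of differentiated epidermis were higher in skin, by 7.14 to 12.89, with a summed level of 6.0 in tooth and 3760 in skin.

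Of the 59 serpin genes, 40 were well above background somewhere, 31 of them on both arrays, 6 in skin alone and 3 in tooth alone. Of the 24323 named genes, 17409 were, with 15271 on both arrays, 740 in skin alone and 1398 in tooth alone. At least 2-fold higher signals were found in skin for 25 of the 40 (62.5%), against 14.2% of all named genes. At least 2-fold higher signals were found in tooth for 7 (17.5%), against 15.5% of all named genes. Counted at the bounds, the numbers were 24 and 6. The median difference was 1.66 over these 40 serpin genes and -0.04 over the 17409 named genes above background. The direction divided by clade, with clade A and the clade B genes of chromosome 1 higher in skin and most genes of clades D to I higher in tooth, although Serpina1f turned towards tooth under spike-in scaling. Scaling the arrays to spiked-in transcripts instead moved the median named gene by -0.62, and gave 21 serpin genes for skin and 9 for tooth, against 9.04% and 32.4% of all named genes. In bulk RNA, fewer cells of a type and less RNA per cell cannot be told apart.

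**Figure D1:**
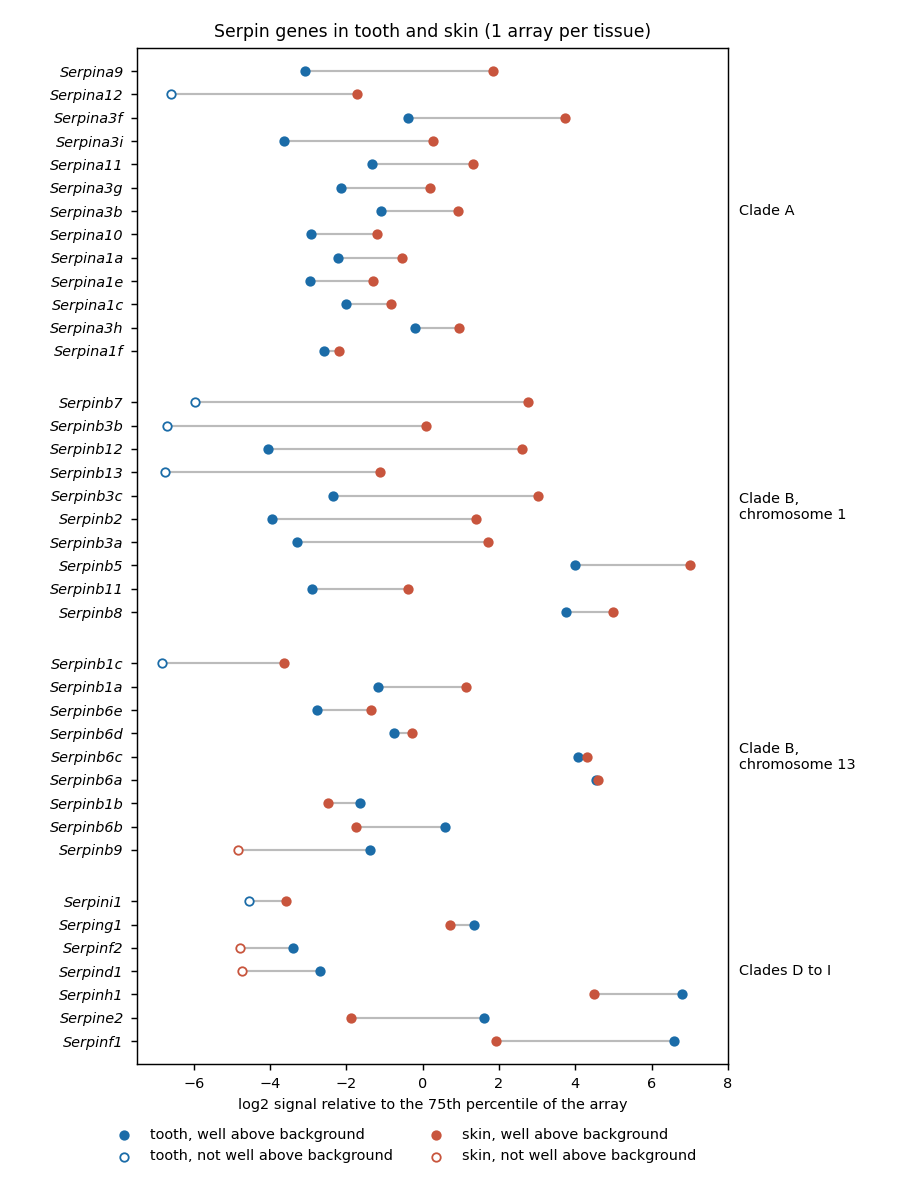
The rows are 39 serpin genes above background, each with its tooth (blue) and skin (red) level as log2 signal relative to the 75th percentile of the array. Open circles are levels not well above background. Skin lies to the right of tooth in all 13 clade A genes and all 10 clade B genes of chromosome 1, whereas tooth lies to the right in 6 of the 7 genes drawn of clades D to I. Under spike-in scaling Serpina1f turns towards tooth. There is 1 array per tissue, so no error bar is drawn.

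The clade B genes of chromosome 1 form a cluster of 11 genes, whose probes span 0.726 Mb from Serpinb5 to Serpinb8 (mm9, chr1:108778585-109504924). The bases before the annotated starts of several are shown because the largest differences of the family lay in this cluster. RefSeq windows (GRCm38.p6, 250 bases before the start, gene strand, 5′ to 3′) were at hand for 10 of the 11. The capitals mark the TATA box as TATAAA, the AP-1 motif as TGANTCA and a Runx motif as TGTGGT. All were read on both strands, so that a TATA box on the other strand is printed as TTTATA. Positions give the first base of a match, with -1 as the base before the start. No marked motif overlaps another in these windows. Serpinb7 (plus strand, chr1:107422439-107422688) and Serpinb12 (plus strand, chr1:106934199-106934448) each hold a TGANTCA at base -45.
Serpinb7: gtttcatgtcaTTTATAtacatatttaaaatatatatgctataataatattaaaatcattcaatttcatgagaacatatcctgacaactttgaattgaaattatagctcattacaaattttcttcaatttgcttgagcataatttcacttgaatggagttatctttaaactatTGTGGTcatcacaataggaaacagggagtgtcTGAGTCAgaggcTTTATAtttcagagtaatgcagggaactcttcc
Serpinb12: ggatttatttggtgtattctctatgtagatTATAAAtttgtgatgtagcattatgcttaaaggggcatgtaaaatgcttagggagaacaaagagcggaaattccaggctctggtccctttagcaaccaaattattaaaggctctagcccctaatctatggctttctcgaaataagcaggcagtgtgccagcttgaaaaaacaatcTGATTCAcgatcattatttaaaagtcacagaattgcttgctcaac

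The Serpinb3 paralogs, on the minus strand, are shown because 3 of them were bright in skin and the other was dim in both tissues. Serpinb3a lies at chr1:107052304-107052553, Serpinb3b at chr1:107161115-107161364, Serpinb3c at chr1:107278372-107278621 and Serpinb3d at chr1:107083481-107083730.
Serpinb3a: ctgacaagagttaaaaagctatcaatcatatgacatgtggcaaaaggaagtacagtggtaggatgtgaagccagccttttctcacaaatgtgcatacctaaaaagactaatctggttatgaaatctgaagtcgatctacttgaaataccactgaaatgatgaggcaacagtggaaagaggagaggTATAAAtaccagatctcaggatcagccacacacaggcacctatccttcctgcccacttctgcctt
Serpinb3b: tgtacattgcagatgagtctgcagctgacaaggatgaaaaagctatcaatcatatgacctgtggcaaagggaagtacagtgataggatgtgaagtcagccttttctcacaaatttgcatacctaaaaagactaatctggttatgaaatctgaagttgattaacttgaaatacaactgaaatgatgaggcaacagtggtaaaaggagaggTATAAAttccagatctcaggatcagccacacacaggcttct
Serpinb3c: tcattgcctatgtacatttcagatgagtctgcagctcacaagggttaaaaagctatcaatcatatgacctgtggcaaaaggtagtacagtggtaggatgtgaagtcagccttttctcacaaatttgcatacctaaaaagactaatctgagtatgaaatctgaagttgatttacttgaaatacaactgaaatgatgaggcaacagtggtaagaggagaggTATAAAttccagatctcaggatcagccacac
Serpinb3d: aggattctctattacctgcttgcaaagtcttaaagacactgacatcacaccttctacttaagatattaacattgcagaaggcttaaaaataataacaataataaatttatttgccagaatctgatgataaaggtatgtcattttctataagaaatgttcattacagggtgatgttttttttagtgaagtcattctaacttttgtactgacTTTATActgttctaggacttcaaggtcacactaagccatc

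The windows of Serpinb3b and Serpinb3c were 88.1% identical once aligned, and that of Serpinb3a was 77.0% and 71.5% identical to them. The Serpinb3d window was only 46.6% to 48.5% identical to the other three. Serpinb3a, Serpinb3b and Serpinb3c hold TATAAA on the gene strand at bases -65, -41 and -31, within the same stretch of matching bases, and Serpinb3d holds it on the opposite strand at -40. Across the 10 windows of the cluster, 7 held TATAAA, against 13% of the 27025 promoters with 1 window per gene. The 7 include the similar windows of Serpinb3a, Serpinb3b and Serpinb3c, which are not separate observations. Serpinb7 and Serpinb3d held it on the opposite strand only. TGANTCA stood in 6 of the 10 (Serpinb5, Serpinb12, Serpinb11, Serpinb7, Serpinb2 and Serpinb8), against 6.87% of all promoters. The Grainyhead-like motif AACCGGTT stood in none of the 10 and in 0.122% of all promoters. GAANNTTC, the core of the heat shock element, stood in 1 (6.78% of all), and TGTGGT in 2 (14.2% of all). The median GC content of the 10 windows was 39.0%, against 52.0% over all promoters, and ranged from 29.2% in Serpinb7 to 58.8% in Serpinb5. These are matches of letters in 1 window per gene, and binding was not measured.

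All 10 genes of the chromosome 1 cluster that were well above background were at least 2-fold higher in skin, with a median difference of 5.37, or 4.81 with dim values at their bound. Their tooth levels ran from -6.75 to 3.99 and their skin levels from -1.12 to 7.0. At least 16-fold differences were found for 7 of the 10, or for 6 at the bound. The share of all named genes at 16-fold was not counted, so this number has no matching background. Over all named genes, 14.2% were at least 2-fold higher in skin. The direction of all 10 was the same under every scaling tried, although Serpinb8 came within 2-fold under median and spike-in scaling. Normexp background correction kept all 10 at least 2-fold higher in skin but lowered their median difference to 3.33. Under it, the fully measured Serpinb12, Serpinb3c, Serpinb3a and Serpinb2 differed by 4.74, 4.42, 3.75 and 3.70.

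Serpinb5, or maspin, a non-inhibitory epithelial serpin, was bright in both tissues, with 3.99 in tooth and 7.0 in skin (8.01-fold higher in skin). Serpinb12, an inhibitor of trypsin-like proteases, measured -4.05 in tooth and 2.61 in skin, 101-fold higher in skin. Its other probe was dim in tooth and gave a difference of 7.49 as measured. Both genes were therefore seen in tooth by at least 1 probe, the former strongly and the latter close to background.

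Serpinb13, an inhibitor of cysteine cathepsins, was dim in tooth and measured -1.12 in skin, at least 10.5-fold higher on this scale. Serpinb7, whose loss causes a palmoplantar keratosis in people, was also dim in tooth and measured 2.77 in skin, at least 156-fold higher on this scale. With normexp correction the differences fell below both bounds, to 2.28 for Serpinb13 and 5.23 for Serpinb7. These were the cluster's skin-only genes together with Serpinb3b. Serpinb2 (plasminogen activator inhibitor 2, which is also found in the cornified envelope) measured -3.94 in tooth and 1.41 in skin, 40.7-fold higher. Serpinb11 measured -2.90 in tooth and -0.40 in skin, 5.68-fold higher.

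The Serpinb3 genes are the mouse relatives of the human squamous cell carcinoma antigens, which inhibit serine and cysteine proteases. Serpinb3a measured -3.30 in tooth and 1.72 in skin, 32.3-fold higher. Serpinb3b was dim in tooth and measured 0.09 in skin, at least 24.3-fold higher, whereas normexp correction gave a difference of 2.96, below that bound. Serpinb3c was spotted 10 times on each array, so its technical error can be read directly. Its intensity ran from 72.4 to 106.5 in tooth (10 spots) and from 2091 to 2397 in skin (9 spots after 1 outlier was dropped), and the sets did not overlap. The scaled levels were -2.36 ± 0.17 in tooth and 3.03 ± 0.06 in skin (SD among spots), a difference of 5.38 ± 0.19 or 41.7-fold. Spots of 1 array are not separate animals, so this error leaves out biological variation. The Serpinb3a and Serpinb3c probes share a run of 17 bases at most.

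Serpinb8, an inhibitor of furin, closed the cluster with 3.75 in tooth and 4.97 in skin, 2.34-fold higher. In the same direction as the cluster, markers of differentiated epidermis were at least 2-fold higher in skin for all 5 genes, while the 3 basal epithelial markers differed by 0.16 to 1.19. All 4 skeletal muscle markers were also at least 2-fold higher in skin, with a median difference of 3.37 and a summed level of 4.12 in tooth and 36 in skin. The part of epidermal or muscle cells in the serpin differences was not tested.

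**Figure D2:**
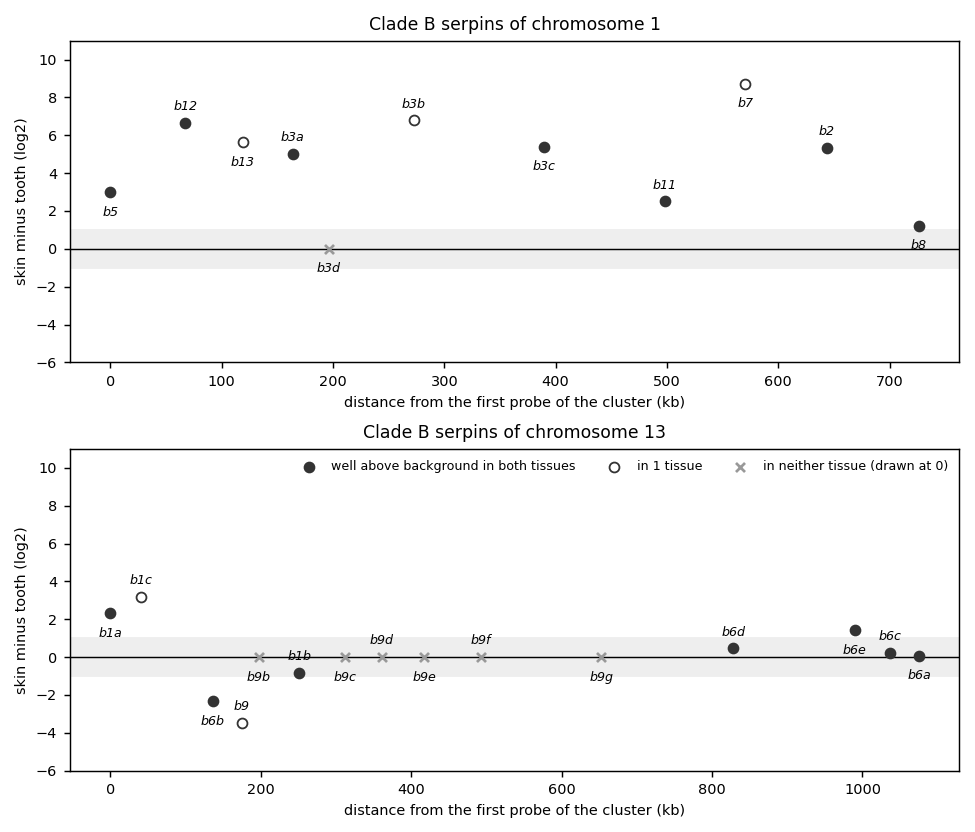
The skin minus tooth difference (log2) of each clade B serpin is drawn against the distance of its probe from the first probe of its cluster, in kb, for chromosome 1 (top) and chromosome 13 (bottom). Filled circles were well above background in both tissues, open circles in 1, and crosses in neither, drawn at 0. The grey band marks differences under 2-fold. All 10 measured genes of chromosome 1 lie above the band, and the 9 of chromosome 13 lie above, within and below it. Names are drawn without "Serpin", and open circles show dim values as measured.

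The clade B genes of chromosome 13 showed no such common direction. This cluster holds 15 genes, whose probes span 1.08 Mb from Serpinb1a to Serpinb6a (mm9, chr13:32934693-34009855), and 9 of them were well above background. Skin was higher in 6 and tooth in 3, at least 2-fold in 3 and 2 respectively. The 2-fold shares over all named genes were 14.2% for skin and 15.5% for tooth. Serpinb6a, Serpinb6c and Serpinb6d turned towards tooth under spike-in scaling. The median difference of 0.24 turned to -0.014 under median scaling and to -0.39 under spike-in scaling. The windows of 14 of these genes held neither TATAAA nor TGANTCA, and their median GC content was 51%. Among all promoters, 13% held TATAAA and 6.87% TGANTCA, and the median GC content was 52%.

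Among those higher in skin, Serpinb1a, an inhibitor of neutrophil elastase, measured -1.17 in tooth and 1.15 in skin, 5.0-fold higher. Its paralog Serpinb1c was dim in tooth and measured -3.65 in skin, close to background, at least 1.83-fold higher. That bound, 0.87 on the log2 scale, lies near the offset of 0.78 between the lowest signals called well above background on the arrays. Serpinb6e measured -2.78 in tooth and -1.36 in skin, 2.68-fold higher, and came within 2-fold under spike-in scaling. The opposite direction was found for Serpinb6b, at 0.58 in tooth and -1.76 in skin, 5.04-fold higher in tooth (difference -2.33, or -1.58 with normexp correction). Serpinb9, an inhibitor of granzyme B in cytotoxic lymphocytes and other cells, measured -1.38 in tooth and was dim in skin, at least 5.10-fold higher in tooth. With normexp background correction its difference was -0.88. The 6 other Serpinb9 genes were well above background on neither array.

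Serpinb6a, an inhibitor of cathepsin G and widely expressed, was bright in both tissues, with 4.53 in tooth, 4.60 in skin and a difference of 0.07 that is smaller than the spot scatter. Serpinb6c, Serpinb6d and Serpinb1b also lay within 2-fold. The Serpinb6a probe and the Serpinb6c probes share 26 bases, so cross-hybridisation between these paralogs cannot be told apart from their own signals. The shared run is shown because it is where the signals could mix.
Serpinb6a and Serpinb6c: aagtgaccttatccataagtgcaatg

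All 13 clade A genes above background were higher in skin, 12 of them at least 2-fold, although the other one, Serpina1f, turned to -0.22 under spike-in scaling. Their median difference was 2.03. Over all named genes, 14.2% were at least 2-fold higher in skin. Of the 23 clade A genes, 22 lie within 0.797 Mb on chromosome 12 (mm9). Secreted clade A serpins in plasma come mostly from the liver, and of 6 hepatocyte markers Alb, Ahsg, Apoa1, Ttr and Fgb were well above background on neither array. The sixth, Apoa2, differed by -0.31. The summed level of all 6 was 7.38 in tooth and 6.02 in skin.

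Serpina9, described in germinal centre B cells as centerin, measured -3.08 in tooth and 1.85 in skin, 30.6-fold higher (difference 4.93, or 3.72 with normexp correction). Serpina12, or vaspin, an inhibitor of the kallikrein Klk7, was dim in tooth and measured -1.71 in skin, at least 6.97-fold higher, whereas normexp correction gave a difference of 1.70, below that bound. Serpina11 measured -1.33 in tooth and 1.32 in skin, 6.26-fold higher, and an overlapping probe gave a difference of 1.72. Serpina10, the protein Z-dependent inhibitor of factor Xa, measured -2.92 in tooth and -1.20 in skin, 3.29-fold higher. Clade A differences outside the Serpina1 and Serpina3 groups thus covered 1.72 to 4.93 over 4 genes.

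The Serpina3 genes are a mouse expansion related to human antichymotrypsin, and 5 of 11 were above background, all at least 2-fold higher in skin with a median difference of 2.35. Serpina3f measured -0.38 in tooth and 3.74 in skin, 17.3-fold higher, and its other probe gave a difference of 3.62. The brighter probe lies 823 bp past the Serpina3h probe and 33.6 kb from the other Serpina3f probe, so its assignment within the cluster rests on the array's annotation. Serpina3i measured -3.64 in tooth and 0.28 in skin, 15.2-fold higher, with a difference of 2.52 by its other probe and of 2.58 with normexp correction. Serpina3g, an intracellular inhibitor of cysteine cathepsins, measured -2.15 in tooth and 0.20 in skin, 5.11-fold higher. Serpina3b measured -1.09 and 0.93 (4.07-fold). Serpina3h, a transcribed pseudogene in RefSeq, measured -0.21 and 0.95 (2.24-fold). Its difference came within 2-fold under median scaling, spike-in scaling and normexp correction.

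The Serpina1 genes are the mouse copies of antitrypsin, the main inhibitor of neutrophil elastase. Of the 5, 4 were above background, 3 of them at least 2-fold higher in skin. Serpina1a measured -2.23 in tooth and -0.54 in skin, 3.22-fold higher, with a difference of 2.14 by its other probe. Serpina1e measured -2.95 and -1.31 (3.12-fold), whereas its other probe gave 0.63. Serpina1c measured -2.01 and -0.84 (2.26-fold), and came within 2-fold under median scaling (0.93), spike-in scaling (0.55) and normexp correction (0.92). Serpina1e came within 2-fold under normexp correction (0.53), which left Serpina1a alone at least 2-fold higher. The probes of Serpina1a and Serpina1c share 47 bases and all 3 share a run of 29, so their signals are not independent. That common run is shown because it bounds what the array can say about single copies.
Serpina1a, Serpina1c and Serpina1e: gtcatccttccttctgaattgggttcctt

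Clades C to I hold 10 genes with separate functions. Of the 8 above background, 5 were at least 2-fold higher in tooth and 0 in skin, with a median difference of -1.72. With dim values at their bound, 4 were and the median was -0.84. Over all named genes, 15.5% were at least 2-fold higher in tooth and 14.2% in skin. Among all promoters, 13% held TATAAA, 6.87% TGANTCA and 14.2% TGTGGT, so 7 windows are too few to show a lack. The windows of the 7 serpin genes at least 2-fold higher in tooth, Serpinb6b and Serpinb9 included, held no TATAAA and no TGANTCA, and 1 held TGTGGT. That window belongs to Serpinf1 (minus strand, chr11:75422624-75422873), with TGTGGT at -117 and -90, and is shown because this gene had the largest difference towards tooth among the serpins.
Serpinf1: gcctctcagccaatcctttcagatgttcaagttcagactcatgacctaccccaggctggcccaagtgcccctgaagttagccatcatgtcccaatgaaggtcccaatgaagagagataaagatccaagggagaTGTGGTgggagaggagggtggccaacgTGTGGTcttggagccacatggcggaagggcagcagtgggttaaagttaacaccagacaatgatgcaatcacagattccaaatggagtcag

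Serpinf1 encodes PEDF, a secreted protein that inhibits angiogenesis and is needed for normal bone mineralisation. It measured 6.58 in tooth and 1.92 in skin, 25.3-fold higher in tooth, and its other probe gave a difference of -4.93. Serpinh1, the collagen chaperone of the endoplasmic reticulum, measured 6.79 in tooth and 4.49 in skin, 4.93-fold higher in tooth, at processed intensities of 47490 and 6217. No spot was saturated on either array. Both genes were bright in tooth and still well above background in skin.

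Serpine2, or protease nexin 1, an inhibitor of thrombin and plasminogen activators, measured 1.61 in tooth and -1.87 in skin, 11.2-fold higher in tooth (difference -3.48, or -2.74 with normexp correction). Serpind1, or heparin cofactor II, measured -2.69 in tooth and was dim in skin, at least 2.06-fold higher in tooth. With normexp correction its difference was -0.08. Serpinf2, the inhibitor of plasmin, measured -3.39 in tooth and was dim in skin, at least 1.27-fold higher in tooth, and normexp correction turned the difference to 0.16. Neither of these last genes was far above background on any array.

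Serping1, the inhibitor of the first complement component, measured 1.35 in tooth and 0.71 in skin (difference -0.64), and its other probe gave -0.53. Serpini1, or neuroserpin, was dim in tooth and measured -3.59 in skin, at least 1.90-fold higher. The mean of its probes gave a difference of 1.66, but the other probe was dim on both arrays. Odontoblast and bone markers were at least 2-fold higher in tooth for all 5 genes, with a median difference of -7.96. Their part in the tooth-high serpins was not tested.

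Differences of the 8 genes within 2-fold as measured ran from -0.83 in Serpinb1b to 0.97 in Serpini1. Serpina1f, Serpinb6a, Serpinb6c, Serpinb6d and Serping1 lay between them. Serpini1 was dim in tooth, so it has only a bound, at least 1.90-fold, and whether it lies beyond 2-fold cannot be told. This bound, 0.92 on the log2 scale, lies near the offset of 0.78 between the lowest signals called well above background on the arrays. The difference of Serpini1 was 0.35 under spike-in scaling and 0.59 with normexp correction. The 19 genes well above background on neither array were Serpina1d, Serpina3a, Serpina3c, Serpina3j, Serpina3k, Serpina3m, Serpina3n, Serpina5, Serpina6, Serpina7, Serpinb3d, Serpinb9b, Serpinb9c, Serpinb9d, Serpinb9e, Serpinb9f, Serpinb9g, Serpinc1 and Serpini2. Among them, Serpinc1 encodes antithrombin, Serpina6 corticosteroid-binding globulin and Serpina7 thyroxine-binding globulin. Dim values of the 19 genes differed by a median of 0.77. Placed at the lowest signal called well above background on each array, all but Serpina1d differ by 0.78. That is the offset between these lowest signals, so the 0.77 is no measured lean towards skin. No level is given for single genes.

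**Figure D3:**
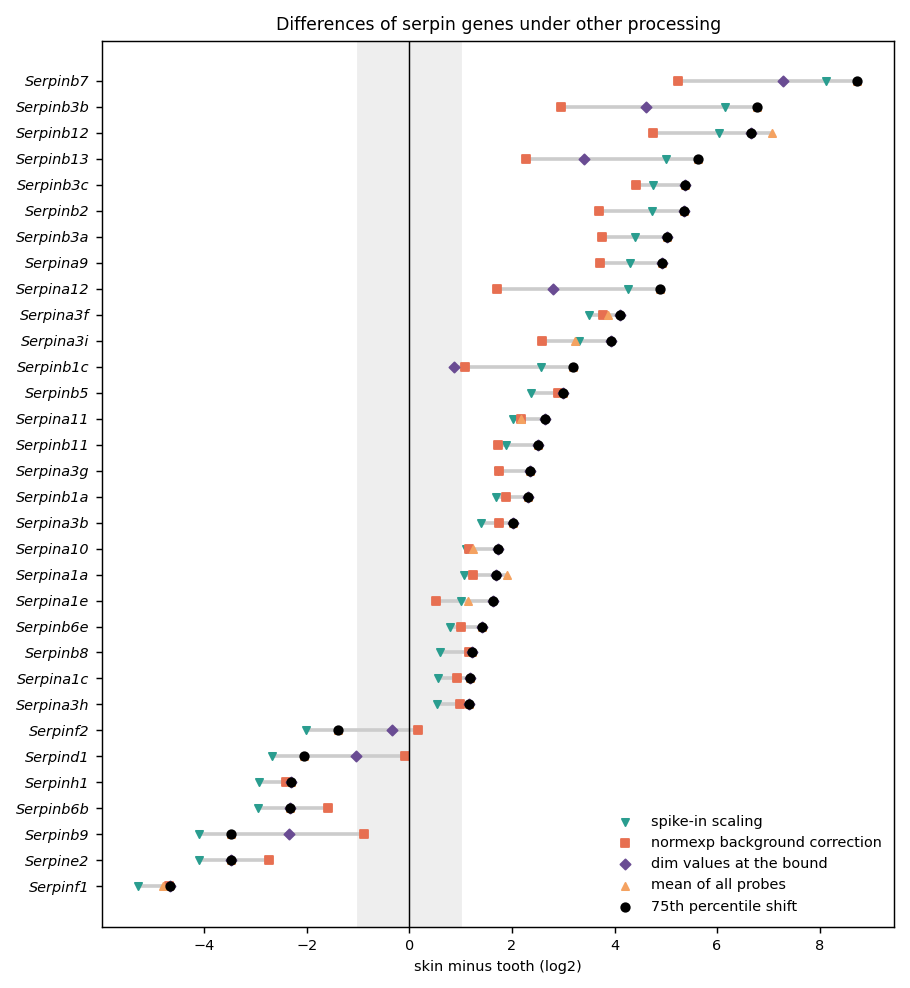
For each of the 32 serpin genes at least 2-fold apart, the black point is the skin minus tooth difference (log2) after the 75th percentile shift. Coloured symbols are 4 of the 10 other ways of processing, and the grey line spans those with a value for that gene. The settings without a filter on dim probes and with a lenient detection call are left out. For genes dim on 1 array, the setting that requires both arrays is left out too. The grey band marks differences under 2-fold. Several genes dim on 1 array, such as Serpinb3b, Serpinb7 and Serpinb13, have long lines, and Serpinf2 alone of the 32 crosses 0.

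The proteases and partners of serpins were read from a list of 58 names, of which 56 matched genes on the array and 49 were above background. At least 2-fold higher signals were found in skin for 20 and in tooth for 12, beside 14.2% and 15.5% of all named genes. The balance depended on the processing. Spike-in scaling gave 15 and 17, beside 9.04% and 32.4% of all named genes, normexp correction 15 and 11, and the genes measured on both arrays 11 and 11. Of 12 epithelial serine proteases above background, 9 stood at least 2-fold above tooth in skin and 2 were the other way round, with a median difference of 3.48. Klk5 and Klk7, which cleave the junctions of the cornified layer, were dim in tooth and measured 6.46 and 3.98 in skin, at least 2011-fold and 361-fold higher. With normexp correction their differences were 8.56 and 6.22, below both bounds. Klk4, the enamel-processing kallikrein, measured 3.40 in tooth and -2.52 in skin, 60.6-fold higher in tooth. Hpn, a membrane-bound serine protease, measured 1.03 and -0.72, 3.35-fold higher in tooth.

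Of 10 cofactors, receptors and clients, 6 were at least 2-fold higher in tooth and 2 in skin. The shares over all named genes were 15.5% and 14.2%. Collagens are clients of HSP47. Col1a1 measured 8.85 in tooth and 5.68 in skin, and Col1a2 measured 9.51 and 7.01, 8.97-fold and 5.65-fold higher in tooth. Col3a1 measured 5.77 and 5.90, a difference of 0.13 that turned to -0.12 under median scaling and -0.50 under spike-in scaling. Col2a1 was dim in skin and at least 43.3-fold higher in tooth (difference -3.49 with normexp correction), and Plod2, a collagen lysyl hydroxylase, was 34.9-fold higher in tooth. In the opposite direction, Vtn, the adhesive glycoprotein vitronectin, was dim in tooth and at least 2.34-fold higher in skin, and Pnpla2, a lipase described as a PEDF receptor, was 2.03-fold higher in skin. Pnpla2 came within 2-fold under median scaling (0.77), spike-in scaling (0.40) and normexp correction (0.89), and Vtn under normexp correction (0.84).

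Of 10 coagulation and fibrinolysis genes above background, 7 lay within 2-fold. This is a similar share to that of all named genes above background, of which 12252 of 17409 lay within 2-fold. Tissue factor (F3) measured -0.51 in tooth and 3.48 in skin, 16-fold higher in skin, and F12 was dim in tooth and at least 2.29-fold higher in skin (difference 0.91 with normexp correction). Plaur, the urokinase receptor, measured 0.59 and -1.09, 3.21-fold higher in tooth. The plasminogen activators, which Serpine2 inhibits, differed little, Plau by 0.82 and Plat by 0.27, and Plat turned to -0.35 under spike-in scaling. Of the complement proteases that Serping1 inhibits, C1ra was 3.85-fold and C1s1 2.79-fold higher in tooth, and Masp1 was dim in tooth and at least 3.71-fold higher in skin. With normexp correction, C1s1 differed by -0.82 and Masp1 by 1.09.

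Of 8 leukocyte and mast cell proteases above background, 5 stood at least 2-fold higher in skin, none in tooth. Among all named genes the shares were 14.2% and 15.5%. The mast cell chymase Cma1 was dim in tooth and at least 16.7-fold higher in skin, and the tryptase Tpsab1 was at least 2.17-fold higher. With normexp correction these differences were 2.12 and 0.93. Tpsab1 was named for its difference from a dim tooth value, whereas Mcpt4 and Tpsb2, measured on both arrays, were 3.48-fold and 2.92-fold higher in skin. Of 5 mast cell markers, 3 of which (Cma1, Mcpt4 and Tpsb2) are also in the protease list, 4 were at least 2-fold higher in skin, with a summed level of 3.31 in tooth and 5.28 in skin. Among 5 cysteine cathepsins, Ctsk, the collagen-degrading cathepsin of osteoclasts, measured 6.08 in tooth and 1.19 in skin, 29.6-fold higher in tooth, and Ctsh measured 2.86 and 4.40, 2.90-fold higher in skin (difference 0.91 with spike-in scaling). The other 3 cathepsins lay within 2-fold.

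**Figure D4:**
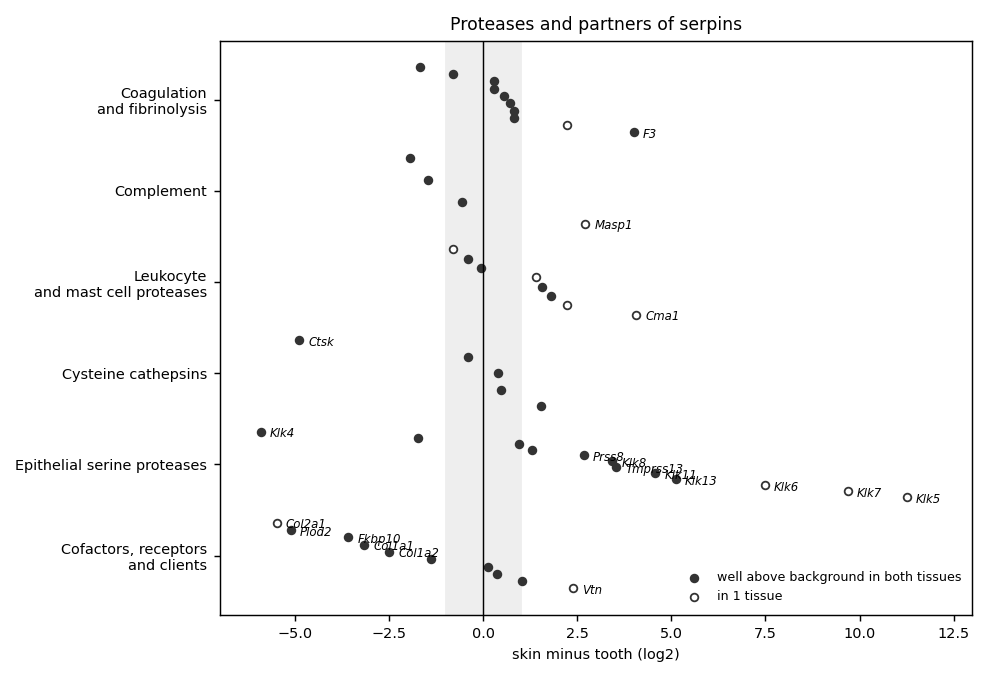
Each point is a protease or partner of serpins above background on at least 1 array, placed by its skin minus tooth difference (log2) and grouped by role. Open circles were well above background in 1 tissue only, the grey band marks differences under 2-fold, and the genes furthest from 0 are named. Epithelial serine proteases lie mostly to the right, at a median of 3.48, and cofactors, receptors and clients mostly to the left, at a median of -1.94.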

How the data were processed

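Total RNA from 1 tooth and 1 skin sample was hybridised to 1-colour Agilent arrays after low-input Cy3 labelling. Per the file headers, each spot's deposited value is a background-subtracted and detrended intensity from Agilent Feature Extraction 10.7.3.1. The authors also deposited a value table, in which each value is a ratio of the processed intensity to 1 factor per array. That table served as an alternative. The deposited intensities were turned to log2, spots of a probe were averaged without outlier spots, and the 75th percentile of each array over non-control probes was subtracted (Python 3.11.15, pandas 2.3.3). A probe was above background if over 50% of its spots were so called. On the tooth array 56.7% of 55675 probes passed, and on the skin array 52.5%. The number of arrays limits the precision. Normexp correction (limma 3.58.1, offset 50) was among 10 alternatives. The procedure was tested on simulated data with differences planted only in bright genes, so dim genes and bounds were not tested.

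Array names were checked against RefSeq accessions, and all 73 of the 75 serpin probes that matched carried the same symbol. Probe coordinates are mm9, per the file headers, and promoter windows GRCm38.p6. The exon or UTR under a probe was not analysed here. Promoter windows matched 49 of the 59 genes. Serpin genes with at least a 2-fold difference or bound were named with their levels, or with a bound where 1 array was dim, as were Serpinh1, Serpine2, Serpinf1, Serping1, Serpinb5, Serpinb6a and Serpina1a whatever their values. Of the partners, the 2 largest of at least 2-fold in each direction per role were named, with Plau, Plat, Vtn, Col1a1 and Col1a2. This ranking took dim values as measured. Col3a1, Mcpt4 and Tpsb2 were added after their values were seen. Members and lists were chosen with earlier results of these data known. For 1 counted member, values are not reported here.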

Additional observations from a re-analysis of the deposited data

Results flagged for a closer look

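Serpin-named probes outside the naming rule also gave signal, whereas 0 of 308 negative-control spots on the tooth array and 1 of 308 on the skin array passed the background call. The probe for Serpinb10-ps, which RefSeq names Serpinb10 and which lies within the chromosome 1 cluster, measured -2.83 in tooth and 1.12 in skin (difference 3.94). Both probes for Serpina4-ps1 were dim in tooth and well above background in skin, at -2.74 and -1.95. They were flagged because these probes enter none of the comparisons above.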

How the results depend on the processing

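The serpin genes at least 2-fold apart numbered 25 for skin and 7 for tooth. Of these 32 genes, median scaling kept 22 and 7, spike-in scaling 21 and 7, normexp correction 22 and 4, and dim values at the bound 24 and 6. The spike-in scaling also raised the tooth count to 9, as it raised the tooth share of all named genes. Over all named genes, the 2-fold shares for skin and tooth were 14.2% and 15.5%. They were 11.6% and 20.1% with median scaling and 9.04% and 32.4% with spike-in scaling. Normexp correction gave 10.01% and 9.6%, both arrays required 11.4% and 12.3%, and dim values at the bound 13.99% and 13.3%. Requiring both arrays left 4 genes for tooth, as did normexp correction. The serpin median of 1.66 became 1.41 with median scaling, 1.04 with spike-in scaling, 1.53 with quantile normalization, 1.12 with normexp correction, 1.15 without a filter on dim probes, 1.31 with a lenient detection call, 1.53 with dim values at the bound and 1.54 with the mean of all probes. The chromosome 1 median of 5.37 became 5.12 with median scaling, 4.74 with spike-in scaling, 5.21 with quantile normalization, 3.33 with normexp correction, 5.02 with both arrays required and 4.81 at the bound. The chromosome 13 median of 0.24, which is the value of Serpinb6c, turned to -0.014 with median scaling and to -0.39 with spike-in scaling, and was 0.76 without a filter. Spike-in scaling also turned Serpina1f to -0.22 and Serpinb6d to -0.16, and normexp correction turned Serpinf2 to 0.16. Partners at least 2-fold apart numbered 20 for skin and 12 for tooth. They numbered 15 and 17 with spike-in scaling, 15 and 11 with normexp correction and 11 and 11 with both arrays required. The shares of all named genes given above for each setting stand beside these partner counts too. Median scaling moved the median named gene by -0.25 and spike-in scaling by -0.62, which accounts for their shifts. Without a filter, the serpin median and the chromosome 13 median are values of genes well above background on neither array. The cause of the remaining shifts was not tested. No paired analysis was possible because each tissue had 1 array and the labels give no replicate numbers. Dim signals limit what can be said of genes near background.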
